A study of Bos taurus with 170 samples.

Results

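The 83 genes described here had next to no transcripts in bovine Day 2 blastomeres and were each counted in a part of the Day 3 blastomeres, at the median in 20.3% of them. They were chosen by their counts: of the 10772 genes in the table, those with at most 5 unique molecular identifiers (UMI, each the tag of 1 captured mRNA molecule) summed over all Day 2 cells and 25 or more over all Day 3 cells were taken. A total of 91 genes met both limits, and 8 of them were left out by name, namely MYC, PCDH10, CNR2, ADAMTS1, SLC13A4, SLC16A6, SLC17A6 and ZNF432. Because the rule used the contrast between the days, the difference between Day 2 and Day 3 is given for these genes as a description. Members took part in fits over all genes, but no test of a member between the days is reported. Nothing is supported with that difference. The rule used Day 3 only as a sum over embryos, so it did not ask which embryo or which sibling cell held the transcripts, but a gene high in 1 embryo could pass through that embryo alone. Without Day3-E8, 53 of the 83 genes would have met the rule, and without Day3-E4, 62. Counted without the embryo in which each was highest, 49 of the 83 genes would fall under 25 UMI, so differences among the Day 3 embryos in these genes are in part set by the rule and are given as a description throughout.

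The cells came from untreated embryos made by in vitro maturation and fertilization of oocytes from slaughterhouse ovaries. They were filmed and picked for cleavage timing, so they stand for embryos of that timing and not for all fertilized oocytes. The 6 Day 2 embryos are labelled as 8-cell and the 8 Day 3 embryos as 16-cell stage, names that are not exact counts, since between 6 and 9 blastomeres of each Day 2 embryo entered here, and between 13 and 17 of each Day 3 embryo. Each embryo was taken apart into single blastomeres whose mRNA was tagged at its polyadenylated end (SCRB-Seq). The embryo was the replicate, written Day2-E1 to Day2-E6 and Day3-E1 to Day3-E8, and cells with 2000 or more UMI were kept, 161 in all and 43 of them on Day 2. Day 2 embryos held 438899 to 920192 UMI on genes and Day 3 embryos 294912 to 600185, so that 1 UMI equalled 1.09 to 2.28 CPM (UMI of a gene per 1000000 UMI on genes in the embryo) in a Day 2 embryo and 1.67 to 3.39 in a Day 3 embryo. A UMI marks 1 molecule, so levels were not divided by transcript length.

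The plates and libraries were not spread evenly over the embryos. The title of each cell ends in p1, p2 or p3, read here as plates 1, 2 and 3. The labels do not say what the p stands for. Plate 1 held Day3-E1 to Day3-E4, while plates 2 and 3 held all Day 2 embryos and Day3-E5 to Day3-E8. The study's methods give an earlier collection time for all Day 3 embryos of plate 1 than for the other Day 3 embryos, so the plate cannot be told apart from the age at collection. All Day 2 embryos and Day3-E1 and Day3-E2 carried a first set of cell barcodes, Day3-E4 to Day3-E8 carried a second, and the labels do not settle Day3-E3. The 170 cells of the table used 93 different barcodes, 77 of which served a pair of cells. The share of UMI from the ERCC spike-in RNA that was added to every well was 1.38% to 1.52% in the Day 2 embryos, 1.3995% in Day3-E1, 1.46% in Day3-E2 and 1.45% in Day3-E3, and 2.43% to 2.98% in Day3-E4 to Day3-E8.

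An early embryo starts out on mRNA and protein that the oocyte stored, while its own genome is nearly silent. In cattle, broad transcription from the embryonic genome, called embryonic genome activation, begins at about the 8- to 16-cell stage, while stored maternal mRNA is cleared. A transcript that is missing just before this point and present after it is therefore usually read as made by the embryo, whereas one that is stored cannot be told from one that is newly made.

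The summed level of the 83 genes was low and even in the Day 2 embryos and differed widely among the Day 3 embryos. It lay between 40.6 and 56.7 CPM in the Day 2 embryos, with a mean of 49.6 ± 5.20 CPM (SD, n = 6). Among the Day 3 embryos, Day3-E1 had 197 CPM, Day3-E3 597, Day3-E5 626, Day3-E6 1208, Day3-E2 1316, Day3-E7 1526, Day3-E4 2385 and Day3-E8 2579, with a mean of 1304 ± 848 CPM (SD, n = 8). The lowest of these, Day3-E1, had the most UMI of all Day 3 embryos, and Day3-E4 and Day3-E8, with the highest levels, lay on plates 1 and 2. Both carried the second barcode set and had 2.96% and 2.498% of their UMI from spike-in RNA, and the part of these in the levels was not tested. In counts, the set amounted to 202 UMI on Day 2 and 3798 on Day 3.

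Most of the 83 genes were carried by most Day 3 embryos. All 8 embryos had a UMI of 26 of the genes, 7 embryos of 32 genes, 6 embryos of 19, 5 embryos of 3 (ANKRD1, KRT24 and MED9), and 4 embryos of 3 (BTBD1, IL33 and TMEM186). Day3-E8 carried 82 of the 83 genes, Day3-E4 80, Day3-E6 and Day3-E7 79 each, Day3-E2 69, Day3-E3 68, Day3-E5 65 and Day3-E1 51. With 3 or more UMI the counts spread further, from 17 genes in Day3-E1 and 27 in Day3-E5 to 74 in Day3-E4 and 77 in Day3-E8. A Day 2 embryo carried 18 to 34 of the genes. Day3-E1 did not leave the range of the Day 2 embryos for 46 of the 83 genes. Day3-E4 stayed in it for 3 (ANKRD1, FAM209A and TNFRSF12A) and Day3-E8 for 1 (EPHX4). The share over all genes was not computed for single embryos. As the rule capped the Day 2 counts and some members passed only through Day3-E4 or Day3-E8, nothing is read from these counts.

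**Figure D1:**
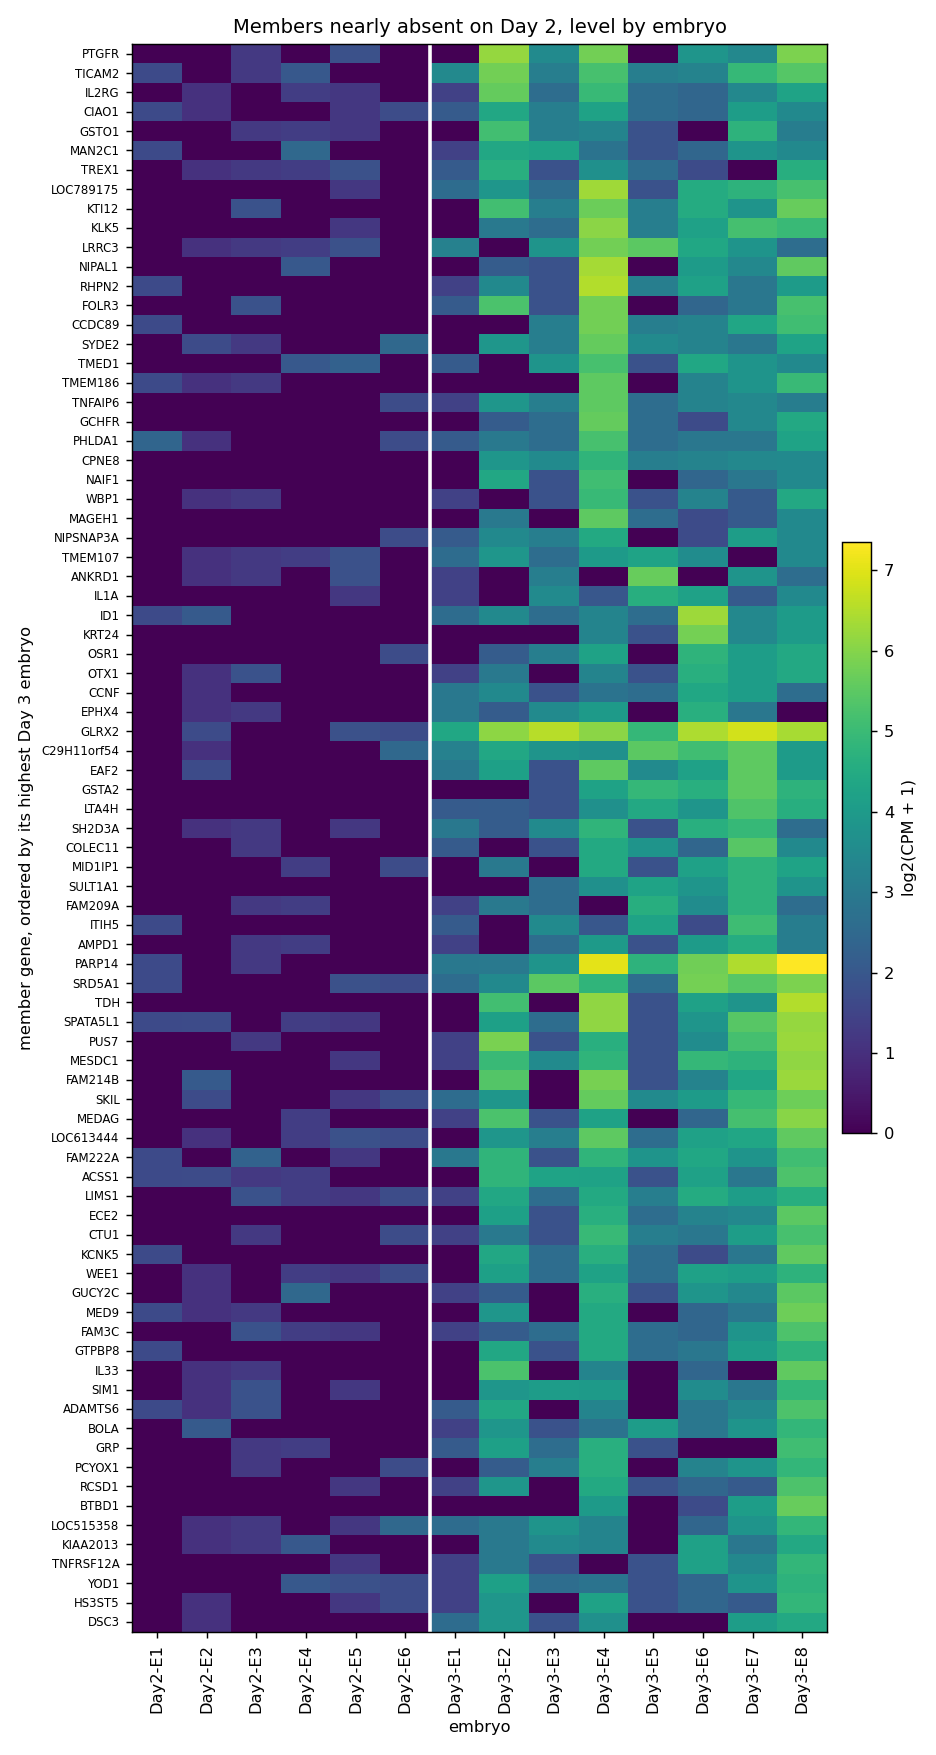
Level of 82 of the 83 genes in every embryo, as log2(CPM + 1), with genes in rows, ordered by the Day 3 embryo in which they were highest, and embryos in columns (Day 2 left and Day 3 right of the white line). The Day 3 columns brighten from Day3-E1, with 51 genes carried, to Day3-E4 and Day3-E8, with 80 and 82, and blocks of genes were highest in different embryos.

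In the Day 2 embryos the traces of these transcripts were thinly scattered. Of the 83 genes, 11 had 0 UMI on Day 2, 20 had 1, 14 had 2, 11 had 3, 14 had 4 and 13 had 5. Among 43 Day 2 cells 37 carried at least 1 UMI of some member, and no cell had more than 3 UMI of the same gene. The 11 genes at 0 were TDH, GSTA2, LTA4H, ECE2, KRT24, GCHFR, SULT1A1, CPNE8, BTBD1, NAIF1 and MAGEH1. A count of 0 over all Day 2 cells allows up to 0.746 CPM (3 UMI over the whole day, for counting error only). Against that floor the pooled Day 3 level was at least 34.5-fold higher for TDH, 22.6-fold for GSTA2, 18.3-fold for LTA4H and 10.64-fold for MAGEH1. These bounds follow from the sums that the rule used and leave out the spread between embryos, so nothing is read from them. MAGEH1, with 25 UMI on Day 3, has the smallest bound that the rule allows for a gene at 0.

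Values at the edges of the rule were close on both sides. Inside it, 13 genes had 5 UMI on Day 2, among them ACSS1 with 47 UMI on Day 3, FAM222A with 53, GLRX2 with 207, LIMS1 with 43 and LOC515358 with 30, and DSC3, MAGEH1 and NIPSNAP3A had 25 on Day 3. Just outside, 22 genes had 6 UMI on Day 2, such as ABHD13 with 29 UMI on Day 3, ABTB1 with 31, ATAD3A with 48, CLDN6 with 44 and COL12A1 with 31. A further 6 had 24 UMI on Day 3, such as LOC100848357, MIR449C, MYL4, PCED1B and RBFA. Most members were near the lower limit themselves, since 57 had 25 to 49 UMI on Day 3, and the median was 35.

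In 16 members every Day 3 embryo lay above every Day 2 embryo, among them C29H11orf54, CCNF, CIAO1, EAF2, GLRX2, ID1, IL2RG, LOC789175, LTA4H, MESDC1, PARP14, PUS7, SH2D3A, SRD5A1 and TICAM2. Over all 6826 genes with 25 or more Day 3 UMI, 3.66% had all Day 3 embryos above all Day 2 embryos. As the rule used this contrast, the count is given without a reading. In the other members at least 1 Day 3 embryo, most often Day3-E1, fell within the Day 2 range.

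GLRX2, the mitochondrial glutaredoxin that acts on glutathione-bound thiols, had the smallest share of its UMI in a single embryo, 18.8%, while in CPM the smallest share was that of LIMS1, with 19.8% against 20.3% for GLRX2. GLRX2 had 113.1 CPM in Day3-E7 and 94.3 in Day3-E3, then 85.5 in Day3-E6, 82.4 in Day3-E8, 67.8 in Day3-E2, 65.8 in Day3-E4, 28.6 in Day3-E5 and 20.0 in Day3-E1, a mean of 69.7 ± 31.8 CPM (SD, n = 8), and between 0 and 2.56 CPM in the Day 2 embryos. All Day 3 embryos thus lay above all Day 2 embryos, and 66.1% of the Day 3 cells had a UMI of it. Other redox and detoxification enzymes were GSTA2 and GSTO1, which conjugate or transfer glutathione, SULT1A1, a sulfotransferase, and EPHX4, an epoxide hydrolase. GSTA2 was at 0 in Day3-E1 and Day3-E2 and had 2.62 CPM in Day3-E3, 17.9 in Day3-E4, 24.1 in Day3-E6, 25.7 in Day3-E8, 28.6 in Day3-E5 and 45.3 in Day3-E7. SULT1A1 took nearly the same order, from 0 in Day3-E1 and Day3-E2 to 18.2 CPM in Day3-E5 and 25.9 in Day3-E7. Of these 5 enzymes 0 were highest in Day3-E4 or Day3-E8, 4 were highest in Day3-E5, Day3-E6 or Day3-E7, and GSTO1 was highest in Day3-E2 with 33.9 CPM.

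**Figure D2:**
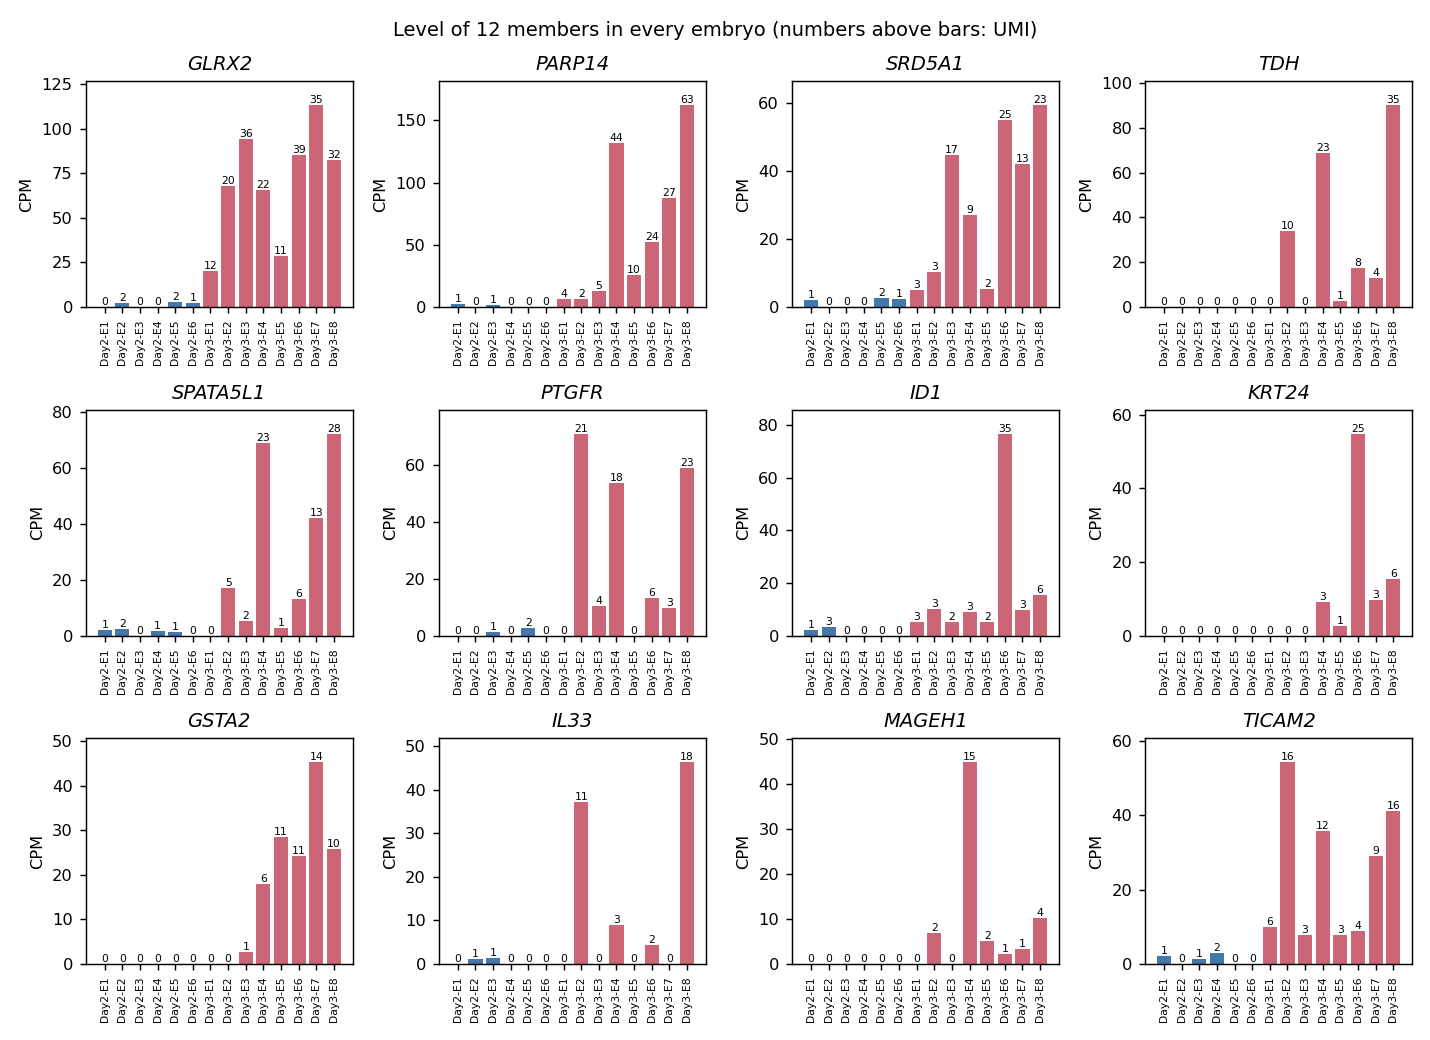
Level of 12 of the 83 genes in every embryo in CPM, with the UMI behind each bar printed above it (blue Day 2, red Day 3). GLRX2 reached 20.0 CPM or more in all Day 3 embryos, TDH and SPATA5L1 were highest in Day3-E4 and Day3-E8, GSTA2 in Day3-E7, PTGFR and TICAM2 in Day3-E2, and ID1 and KRT24 in Day3-E6.

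Secreted proteins and proteases made up 10 of the 83 genes, and different embryos carried different ones. IL33, an alarmin of the interleukin-1 family, reached 46.3 CPM in Day3-E8 and 37.3 in Day3-E2, stood at 8.97 in Day3-E4 and at 4.38 in Day3-E6, and was at 0 in the other Day 3 embryos. IL1A, another cytokine of that family, was instead highest in Day3-E5 with 23.4 CPM and Day3-E6 with 17.5, was at 0 in Day3-E2 and had 1.67 to 10.47 CPM in the rest. The 2 cytokines were thus carried mainly by different embryos, and the 9 UMI of IL1A in Day3-E5 came from 3 of its 17 cells. KLK5, a kallikrein protease, had 65.8 CPM in Day3-E4, 30.9 in Day3-E8 and 35.6 in Day3-E7 and was at 0 in Day3-E1. ECE2, an endothelin-converting protease, was highest in Day3-E8 with 43.8 CPM in 11 of 15 cells. TNFAIP6, which binds hyaluronan in the expanding cumulus, had 44.8 CPM in Day3-E4 and 1.67 to 13.56 in the other Day 3 embryos, with a mean of 12.4 ± 13.54 (SD, n = 8). GRP, a bombesin-like neuropeptide, FAM3C and the metalloprotease ADAMTS6 were highest in Day3-E8, and the collectin COLEC11 and ITIH5, of the inter-alpha-trypsin inhibitor heavy chain family, in Day3-E7. Summed, the group went from 18.3 CPM in Day3-E1 to 268 in Day3-E8.

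Receptors and signalling adaptors were 8 of the 83 genes, and 3 of them were highest in Day3-E2. PTGFR, the receptor of prostaglandin F, had 71.2 CPM in Day3-E2, 59.2 in Day3-E8, 53.8 in Day3-E4, 13.15 in Day3-E6, 10.47 in Day3-E3 and 9.70 in Day3-E7 and was at 0 in Day3-E1 and Day3-E5. TICAM2, an adaptor of Toll-like receptors, had 54.3 CPM in Day3-E2, 41.2 in Day3-E8, 35.9 in Day3-E4, 29.1 in Day3-E7 and 7.798 to 10.0 in the other Day 3 embryos, all above the highest Day 2 value of 3.04. IL2RG, the gamma chain shared by several interleukin receptors, had 47.5 CPM in Day3-E2 and 1.67 to 29.9 in the rest. These 3 genes were highest in the same embryo, although Day3-E2 stood only in the middle of the summed levels. SH2D3A, an adaptor with an SH2 domain, was instead highest in Day3-E7 with 29.1 CPM and had 13.55 ± 11.22 (SD, n = 8) on Day 3. TNFRSF12A, the receptor of the cytokine TWEAK, had 28.3 CPM in Day3-E8 and was at 0 in Day3-E4, with a mean of 8.65 ± 9.76 (SD, n = 8). GUCY2C, a receptor guanylate cyclase, FOLR3, a folate receptor, and BOLA, a gene of the bovine major histocompatibility complex, were highest in Day3-E8, Day3-E4 and Day3-E8. GSTA2, GSTO1, SULT1A1, FOLR3 and BOLA have close relatives in the genome, so their counts may be divided with or drawn from a paralog.

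Transcription regulators were 9 of the 83 genes, headed by PARP14. PARP14, a mono-ADP-ribosyltransferase that also acts as a cofactor of STAT6, had 162 CPM in Day3-E8 and 132 in Day3-E4, followed by Day3-E7 with 87.3, Day3-E6 with 52.6, Day3-E5 with 25.99, Day3-E3 with 13.09, Day3-E2 with 6.78 and Day3-E1 with 6.66. Its lowest Day 3 embryo stood above the highest Day 2 embryo, at 2.137 CPM, and it was counted in 12 of the 13 cells of Day3-E4 and 13 of the 15 cells of Day3-E8. SKIL, a repressor of TGF-beta signalling, had 51.5 CPM in Day3-E8, 47.8 in Day3-E4 and 29.1 in Day3-E7 and was at 0 in Day3-E3. EAF2, a partner of the elongation factor ELL, was highest in Day3-E7 with 45.3 CPM and Day3-E4 with 44.8, and MED9, a Mediator subunit, in Day3-E8 with 51.5. The developmental transcription factors OTX1 and OSR1 were highest in Day3-E6, with 24.1 and 26.3 CPM. Blastomere 13 of that embryo, described below, held 5 of the 11 UMI of OTX1 and 6 of the 12 of OSR1. Its siblings pooled had 17.2 CPM of each gene, under the 20.6 CPM of each in Day3-E8. SIM1, also a developmental transcription factor, was highest in Day3-E8 with 28.3 CPM. ANKRD1, an ankyrin repeat protein known as a target of YAP, went apart from all of these, with 49.4 CPM in Day3-E5, 12.9 in Day3-E7, and 0 in Day3-E2, Day3-E4 and Day3-E6. ID1, an inhibitor of basic helix-loop-helix factors, had 76.7 CPM in Day3-E6 and 5.00 to 15.45 in the other Day 3 embryos, a value that rested on a single cell described below.

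Metabolic enzymes and their regulators were 11 of the 83 genes. TDH, the mitochondrial threonine dehydrogenase that mouse embryonic stem cells depend on, had 90.1 CPM in Day3-E8, 68.7 in Day3-E4, and 33.9 in Day3-E2, with less in Day3-E6 (17.5), Day3-E7 (12.9) and Day3-E5 (2.599), and it was at 0 in Day3-E1, Day3-E3 and all Day 2 embryos. It was counted in 11 of the 15 cells of Day3-E8. SRD5A1, a steroid reductase that makes dihydrotestosterone, followed another order, with 59.2 CPM in Day3-E8, 54.8 in Day3-E6, 44.5 in Day3-E3, 42.03 in Day3-E7, 26.9 in Day3-E4, 10.17 in Day3-E2, 5.20 in Day3-E5 and 5.00 in Day3-E1. SRD5A1 was thus frequent in Day3-E3, where TDH was not counted. LTA4H, a hydrolase of leukotriene synthesis, was counted in all 8 Day 3 embryos, from 2.62 CPM in Day3-E3 to 38.8 in Day3-E7. GCHFR, the feedback regulator of GTP cyclohydrolase, had 47.8 CPM in Day3-E4 and 20.6 in Day3-E8, and 0 to 9.70 elsewhere. The mitochondrial acetyl-CoA synthetase ACSS1, the heparan sulfate sulfotransferase HS3ST5 and the prenylcysteine oxidase PCYOX1 were highest in Day3-E8, the AMP deaminase AMPD1 and MID1IP1, a regulator of fatty acid synthesis, in Day3-E7, and the mannosidase MAN2C1 in Day3-E2.

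Only 4 of the genes belong to RNA modification and ribosome assembly, and all 4 were highest in Day3-E4 or Day3-E8. SPATA5L1, an ATPase of large ribosomal subunit assembly, had 72.1 CPM in Day3-E8, 68.7 in Day3-E4, and 42.03 in Day3-E7, while Day3-E2 had 16.95, Day3-E6 13.15, Day3-E3 5.24, Day3-E5 2.599 and Day3-E1 0. PUS7, a pseudouridine synthase, had 74.7 CPM in Day3-E8 and 57.6 in Day3-E2, but 23.9 in Day3-E4 and 1.67 to 35.6 in the others. KTI12, which regulates the Elongator complex, and CTU1, which thiolates tRNA, were also lowest in Day3-E1, at 0 and 1.67 CPM. Their summed level went from 3.33 CPM in Day3-E1 to 232 in Day3-E8, with a mean of 90.3 ± 81.7 (SD, n = 8). The shares of Day 3 cells with a UMI were 33.1% for PUS7 and for KTI12, 29.7% for SPATA5L1 and 20.3% for CTU1.

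Genes of the cytoskeleton and of adhesion were 7, those of the cell cycle, ubiquitin and nucleases 4, and those of transport, membranes and organelles 8. MESDC1, an actin-bundling protein related to talin, had 69.5 CPM in Day3-E8, 25.9 to 30.5 in Day3-E2, Day3-E4, Day3-E6 and Day3-E7, 10.47 in Day3-E3, 2.599 in Day3-E5 and 1.67 in Day3-E1. RHPN2, a scaffold protein, was highest in Day3-E4 with 89.7 CPM, against 17.5 in the next embryo, as was NIPAL1, a magnesium transporter, with 80.7 CPM. LIMS1, an adaptor of focal adhesions, was more even, with 14.65 ± 8.48 CPM (SD, n = 8) and a highest value of 23.2. The keratin KRT24 had 54.8 CPM in Day3-E6, 15.45 in Day3-E8, 9.70 in Day3-E7, 8.97 in Day3-E4 and 2.599 in Day3-E5 and was at 0 in the first 3 Day 3 embryos. WEE1, the kinase that delays mitosis, and YOD1, a deubiquitinase, were highest in Day3-E8, CCNF, a cyclin that serves a ubiquitin ligase, in Day3-E6, and TREX1, a DNA exonuclease, in Day3-E2. CIAO1, of cytosolic iron-sulfur cluster assembly, and TMEM107, of the ciliary transition zone, were among the 5 members with the smallest share of their UMI in a single embryo, beside GLRX2, LIMS1 and TICAM2. No role was assigned to the other 17 genes. Of them C29H11orf54 was counted in all 8 Day 3 embryos, from 8.33 CPM in Day3-E1 to 45.3 in Day3-E7, FAM214B had 74.7 CPM in Day3-E8 and 56.8 in Day3-E4 and was at 0 in Day3-E1 and Day3-E3, and BTBD1 had 48.9 CPM in Day3-E8 but 0 in Day3-E1, Day3-E2, Day3-E3 and Day3-E5. MAGEH1, of the MAGE family, had 44.8 CPM in Day3-E4 from 6 of its cells, 10.297 or less in the others and 0 in Day3-E1 and Day3-E3. MEDAG, a gene known from fat cell differentiation, had 64.4 CPM in Day3-E8, 37.3 in Day3-E2 and 35.6 in Day3-E7, and CCDC89, a coiled-coil protein, had 53.8 in Day3-E4 and 33.5 in Day3-E8.

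By the embryo in which they were highest, the 83 genes fell into unequal groups. Day3-E8 was highest for 35 of them, Day3-E4 for 19, Day3-E7 for 12, Day3-E2 for 8, Day3-E6 for 6 and Day3-E5 for 3, while Day3-E1 and Day3-E3 were highest for 0. Day3-E4 or Day3-E8 was therefore highest for 65.1% of the set. Among 3645 other genes with as many Day 3 UMI as members had, Day3-E4 or Day3-E8 was highest for 24.5% and Day3-E1 for 19.6%. As some members passed the rule only through these embryos, nothing is read from this contrast or from the other comparisons of members with these genes. For 28 members Day3-E4 and Day3-E8 were both the top embryos. The highest embryo held a median of 35.5% of the summed CPM of a member, against 23.9% for the other genes. The largest shares of UMI in a single embryo were those of KRT24 (65.8%, Day3-E6), ANKRD1 (65.5%, Day3-E5), BTBD1 (63.3%, Day3-E8), ID1 (61.4%, Day3-E6) and MAGEH1 (60%, Day3-E4).

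The number of members per cell was counted at equal depth. Each cell was thinned to 10000 UMI to give all cells the same depth, which removed 6 of the Day 2 cells and 15 of the Day 3 cells as too shallow. A Day 2 cell then carried a UMI of 0.604 ± 0.160 of the 83 genes (SD over embryos, n = 6) and a Day 3 cell of 10.07 ± 6.203 (n = 8). As mean and SD over siblings, Day3-E1 had 1.69 ± 1.11 genes per cell, Day3-E5 4.69 ± 2.06, Day3-E3 4.92 ± 2.81, Day3-E6 9.71 ± 4.34, Day3-E2 10.77 ± 2.42, Day3-E7 12.3 ± 4.45, Day3-E4 16.91 ± 4.32 and Day3-E8 19.6 ± 3.43. The cells of Day3-E1, with 0 to 3 genes each, all lay below those of Day3-E2, with 8 to 15, and the cells of Day3-E8, with 13 to 28, all lay above those of Day3-E3 and Day3-E5, which reached 10 and 7. Within Day3-E4, 1 cell had 6 genes and the others 15 to 21. On Day 3 the SD between siblings averaged 3.119, beside the SD of 6.203 between embryo means, which the choice of genes through rich embryos raises. Without thinning these were 8.73 and 9.77. Without thinning, a Day 2 cell carried 4.27 of the genes and a Day 3 cell 18.7, at median depths of 76074 and 24696 UMI. The Day 2 values were limited by the rule and are no measure of background, and members without a UMI in a Day 3 cell may still have been transcribed there.

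**Figure D3:**
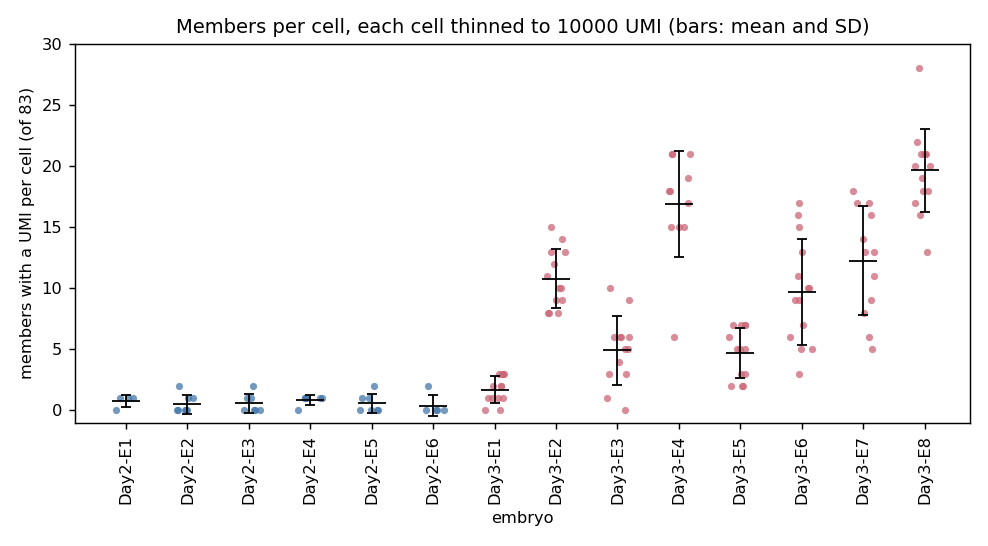
Number of the 83 genes with a UMI in each cell after thinning every cell to 10000 UMI, by embryo (points: cells, blue Day 2 and red Day 3; bars: mean and SD over sibling cells). Day 2 cells had 0 to 2 of the genes, those of Day3-E1 0 to 3 and those of Day3-E8 13 to 28.

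Single members differed between embryos and between siblings, and how the spreads compared depended on the measure. The spread was measured by an index of dispersion, which is 1 when UMI fall on cells or embryos in proportion to depth with counting error only. Between sibling cells the median index over the 83 genes was 1.38 (range 0.830 to 2.84), against 1.26 for the 3645 other genes. Between the Day 3 embryos it was 5.89 (range 1.38 to 24.7), against 2.899. The index grows with the number of UMI, and an embryo holds many times the UMI of a cell, so the index between siblings and that between embryos are not on the same footing. Each was compared between genes within classes of depth. Among genes with 25 to 49 Day 3 UMI the medians between siblings were 1.32 for members and 1.16 for the others, and between embryos 4.48 and 1.91. Among deeper genes they were 1.42 and 1.296 between siblings, and 8.99 and 3.503 between embryos. The sibling index exceeded 1.5 in 34.9% of the members and 23.2% of the other genes. When every cell was thinned to 10000 UMI, the medians between siblings came to 1.096 and 1.08, and those between embryos to 2.143 and 1.62.

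A measure that does not grow with depth is the squared coefficient of variation (CV) beyond counting error, 0 for counting error alone. Its median over the 83 genes was 0.540 between siblings and 0.769 between embryos, against 0.252 and 0.169 for the other genes. Between siblings it was above 0 in 81 of the 83 genes, and in 26 of them (31.3%) it was larger than between embryos. Of the 3645 other genes 3371 were above 0, and in 59.6% the value between siblings was the larger. Thus CCNF, with only 28 UMI, had 1.44 between siblings and 0.174 between embryos, TMEM107 2.72 and 0.0763, TMED1 1.69 and 0.537, PHLDA1 1.603 and 0.626, and CTU1 1.396 and 0.770. PARP14 was on the other side with 0.193 and 0.895, as was TDH with 0.431 and 1.401. At 25 to 49 UMI, where 57 of the members lie, the medians between siblings were 0.575 for members and 0.450 for the others, and such estimates rest on few UMI per cell. In the 26 members with more UMI the median was lower, 0.317 against 0.215 for the others, and in 4 of these 26 the value between siblings exceeded that between embryos, against 22 of the 57. The low counts therefore limit what the index between siblings can show, and a value near 1 does not show that siblings were alike.

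The genes at the ends of these scales were of different kinds. PARP14 had the highest index between embryos, 24.7, followed by TDH with 17.7, RHPN2 with 17.2 and NIPAL1 with 16.77. Between siblings the highest were CCDC89 with 2.84, GCHFR with 2.22, COLEC11 and TMEM186 with 2.04 each and KRT24 with 2.01. The lowest were FAM3C with 0.830, GUCY2C with 0.911, MED9 with 0.923, HS3ST5 with 0.924 and YOD1 with 0.925. By the squared CV beyond counting error these were above 0 all the same, with 0.928 for FAM3C, of whose 15 UMI in Day3-E8 a single cell held 6, 0.737 for HS3ST5, 0.504 for YOD1, 0.260 for GUCY2C and 0.216 for MED9. MED9, with 51.5 CPM in Day3-E8, was carried by 9 of its 15 cells and had an index of 11.101 between embryos. The lowest index between embryos was that of TMEM107, 1.38, beside 1.77 between siblings.

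**Figure D4:**
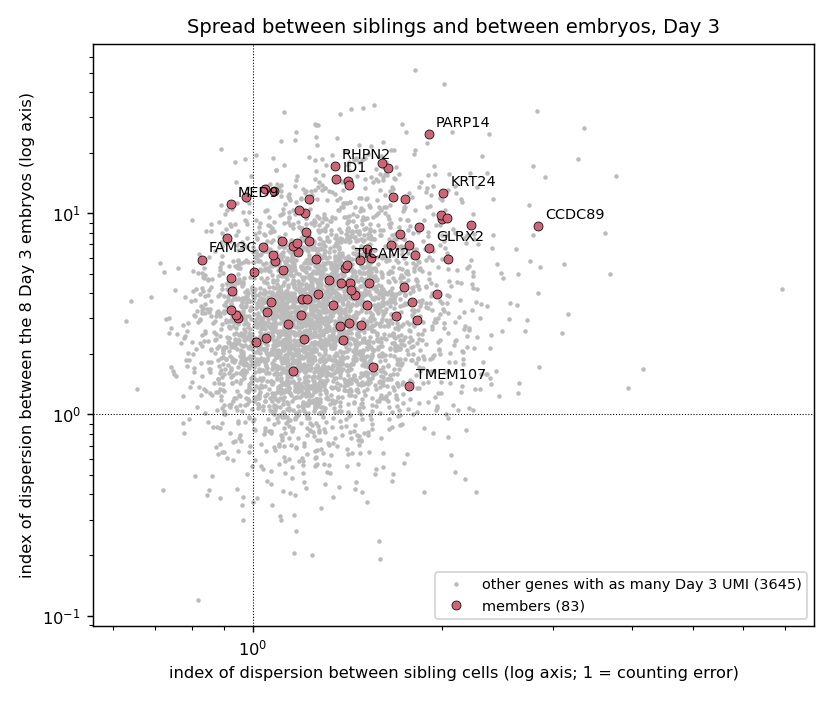
Index of dispersion of each gene between sibling cells (horizontal, log axis) and between the 8 Day 3 embryos (vertical, log axis), for the 83 members (red) and 3645 other genes with as many Day 3 UMI (grey), with dotted lines at 1, the value for counting error alone. The 2 axes rest on different numbers of UMI and cannot be set against each other. Members lie high on the vertical axis, with a median of 5.89 against 2.899, and in the same horizontal range as the others, with 1.38 against 1.26. The height is in part set by the rule, since 49 members met it only with their highest embryo. The groups also differ in depth, with medians of 35 and 78 Day 3 UMI, so nothing is read from the difference.

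A few members owed much of their total to single cells. The highest cell held a median of 11.76% of the Day 3 UMI of a member, against 7.21% for the other genes, which had more UMI, and 8 members had over 20% in 1 cell. The largest case was blastomere 13 of Day3-E6, the deepest Day 3 cell, with 111463 UMI against 11054 to 42413 in its 13 siblings, which was picked out after its values were seen. All 25 UMI of KRT24 in Day3-E6 came from this cell, and so did 30 of the 35 UMI of ID1, or 277 CPM in the cell against 14.37 in its siblings pooled. ID2, a relative of ID1 outside the set, likewise had 646 CPM in this cell and 63.2 in the siblings, while ID3 had 1689 and 1342. Without ID1 and KRT24 the summed level was 1135 CPM in the cell and 1058 in the siblings. Single members went both ways, such as FAM222A with 64.6 CPM in the cell from 7 UMI and 5.75 in the siblings, LOC789175 with 55.4 from 6 UMI and 11.497, and GLRX2 with 55.4 and 94.9. Its share of spike-in UMI, 2.77%, was near that of the whole embryo, 2.98%, and whether the well held more than 1 cell was not tested. If this cell were left out, AMPD1, KRT24 and MAGEH1 would fall under the limit of the rule, and 80 genes would remain. Smaller concentrations were those of RHPN2 and NIPAL1, with 12 UMI each in blastomere 4 of Day3-E4, of TMED1, a cargo receptor of the secretory pathway, and TNFAIP6, with 8 each in a single cell of Day3-E4, and of IL33 with 7 in a cell of Day3-E8.

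The Day 3 embryos of plate 1, the earlier collected, were compared with those of plates 2 and 3. The rule did not use the plate, but it used the Day 3 sum over these embryos, and 38 of the 83 genes would meet it without plate 1, so the members' values are not independent of it. By the quasi-likelihood test of edgeR, 0% of 4832 genes passed an adjusted p (Benjamini-Hochberg) of 0.05, and 147 genes, or 3.04%, had an unadjusted p under 0.05. DESeq2 called 0 genes as well, with 259 at an unadjusted p under 0.05. Only 5 members passed the filter on low counts, namely GLRX2, MESDC1, PARP14, SRD5A1 and TICAM2, and none of them passed the threshold (adjusted p = 1.00 each by edgeR's test). PARP14 had 39.5 ± 61.4 CPM on plate 1 (SD, n = 4) and 82.02 ± 59.04 on plates 2 and 3 (SD, n = 4), and the log2 fold change of plate 1 was -1.11 (standard error 1.02). It rested on single embryos, since it was -3.45 without Day3-E4 (edgeR, adjusted p = 0.488) and -0.34 without Day3-E8. The value of GLRX2 was -0.40 (standard error 0.56), that of SRD5A1 -1.02 (0.79) and that of MESDC1 -1.07 (0.94). When 1 Day 3 embryo was left out, GLRX2 ran from -0.70 to -0.08, SRD5A1 from -1.61 to -0.62, and MESDC1 from -1.54 without Day3-E4 to -0.16 without Day3-E8. TICAM2 had 0.17 (0.81), a sign that turned when Day3-E2, Day3-E4, Day3-E5 or Day3-E6 was left out. Without the filter all 83 members could be tested by edgeR, and 0 passed the adjusted threshold. An unadjusted p under 0.05 was found for 10 of them and for 3.26% of all 10256 genes, from which nothing is read, as the rule used these counts. The summed level of the set was 1124 ± 960 CPM on plate 1 (SD, n = 4) and 1485 ± 819 on plates 2 and 3 (SD, n = 4), so the spread within each set of plates was larger than the difference between them. Day3-E1 and Day3-E2, the only Day 3 embryos known to share the barcode set of the Day 2 embryos, had 197 and 1316 CPM, and the part of the barcode set in the level of the other embryos cannot be told apart from that of the day. With only the embryos of the first barcode set, which leaves Day3-E1 and Day3-E2 on Day 3, 1 gene, GLRX2, would have met the rule.

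Genes outside the set gave a frame for these values. Between the days, edgeR's quasi-likelihood test called 32.5% of 5274 tested genes (adjusted p under 0.05), 1117 of them (21.2% of those tested) higher and 595 lower on Day 3. When TMM scaling was dropped, 890 were higher and 981 lower. The median over all genes then stood at -0.27 on the log2 scale in place of -0.04, to which the values below are relative. Only GLRX2 among the members was abundant enough to enter this fit. The lists below were fixed with earlier results of these data known and were counted without members. Genes that met both limits but were left out by name, such as ADAMTS1 and MYC, stayed in the lists. Of 20 genes that the study names as first transcribed at the 8-cell stage, MAGEH1, MESDC1 and SH2D3A are members, and of the other 17 only 3 could be tested, all 3 higher on Day 3. They were ADAMTS1, a matrix protease, the folate receptor FOLR1 and the Y-linked helicase DDX3Y. Their values on the log2 scale were 6.06 (standard error 1.00; edgeR), 5.43 and 1.702. DDX3Y already had 86.2 ± 24.4 CPM over the 6 Day 2 embryos (SD), most of the Day 2 sum of the 17 genes given below. The labels give no sex of the embryos, and whether reads of a related gene entered its count was not tested. ADAMTS1 met both limits of the rule, with 4 UMI on Day 2 and 205 on Day 3. Its call thus restates the rule, and nothing is read from it. Summed, the 17 genes averaged 118.7 ± 27.7 CPM over the 6 Day 2 embryos and 947 ± 726 over the 8 Day 3 embryos (SD), with 121.6 in Day3-E1, inside the Day 2 range, and 1976 and 2047 in Day3-E4 and Day3-E8. As the study kept those genes of a published list that it detected in these samples, the list is not independent evidence of its direction.

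Gene lists next to the members are read against the shares over all genes given above, 21.2% higher and 595 of 5274 lower. Ribosome biogenesis genes, the neighbours of SPATA5L1, rose in 25 of 62 tested cases and fell in 3. NOP16 rose by 4.55 on the log2 scale (standard error 0.77; edgeR, adjusted p = 0.000449), the polymerase subunit POLR1C 4.45 and NOL11 3.83, and the ribosome export adaptor NMD3 fell by 0.87 on the log2 scale. Among immediate-early and growth-response genes, to which ID1 belongs, 10 of 22 rose, led by MYC with 6.496, KLF10 with 5.18 and SGK1 with 4.72. In the same list 4 fell, such as JUN with -1.46 and FOSL1 with -0.88. MYC, which is counted among the 10, met both limits of the rule. The call of MYC thus restates the rule, and nothing is read from it. Of cytokine and growth factor ligands, the class of IL1A and IL33, 3 of 11 rose (GRO1 with 5.68, IL18 with 5.65 and BMP4 with 3.00) and 4 fell, among them GDF9, ADM and HBEGF. Cell surface receptors counted 3 of 18 higher, FOLR1, PDGFRA and ACVR2B, and 3 lower, BMPR1A, KIT and BMPR1B. Interferon-response genes, among which PARP14 is listed, had 1 of 7 higher, IRF3 with 2.81, and 4 lower, such as PARP12 with -0.97. PARP14 was thus nearly absent on Day 2 and its relative PARP12 had 775 ± 87.3 CPM (SD, n = 6) there and 348 ± 205 (SD, n = 8) on Day 3. Pluripotency factors rose in 4 of 7 cases (KLF4 with 4.33) and fell in 0, trophectoderm genes rose in 2 of 10 (TFAP2C with 5.01) and fell in 1, and extracellular matrix and adhesion genes rose in 3 of 16 (COL1A1 with 5.56) and fell in 1. The receptor, interferon-response, trophectoderm and matrix lists thus held no larger a share of higher genes than all genes tested. With the first barcode set alone, which leaves 2 Day 3 embryos, ACVR2B, BMP4, DDX3Y and, apart from ZAR1, all genes named here or below as lower lost their call, as did CCNB1. The calls of FOSL1, BMPR1A, BMPR1B and CCNB1 were also lost when any of several single embryos was left out, and ADAMTS1, MYC, NOP16, GRO1 and COL1A1 did not pass the filter on low counts with the first barcode set.

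Stored oocyte transcripts gave the reverse order of embryos. The 18 genes of the maternal list, the defining markers of these cells, averaged 24000 ± 1213 CPM in sum over the 6 Day 2 embryos and 17217 ± 6131 over the 8 Day 3 embryos (SD). Among the Day 3 embryos, Day3-E1 had 23476 CPM, Day3-E5 23453, Day3-E3 22188, Day3-E6 18563, Day3-E7 18127, Day3-E2 13736, Day3-E4 11704 and Day3-E8 6485. Apart from Day3-E3 and Day3-E5, and from Day3-E2 and Day3-E7, which changed places, this was the order of the 83 genes turned over. As all values are shares of 1 total, the sums are not independent. By edgeR's test 1 of the 18 rose, CCNB1 with 0.38, and 7 fell, such as ZAR1 with -1.49 on the log2 scale (standard error 0.34; adjusted p = 0.00359).

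**Figure D5:**
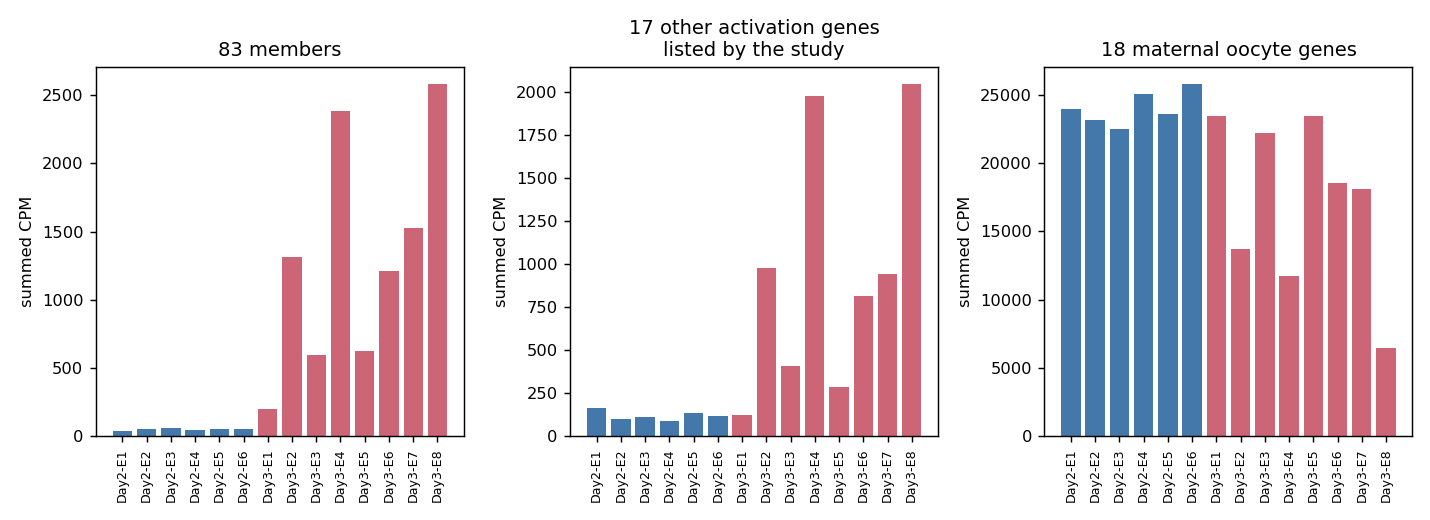
Summed CPM per embryo (blue Day 2, red Day 3) of the 83 members, of 17 other activation genes named by the study and of 18 maternal oocyte genes, each on its own linear axis from 0. The first 2 panels are highest in Day3-E4 and Day3-E8 and the third is lowest there, with 11704 and 6485 CPM.

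Genes outside the set ranked the Day 3 embryos in the same order. By Spearman's rho over the 8 Day 3 embryos, 25 of 6743 other genes had a rho of 1 and 486 a rho of 0.9 or more, a description with no test, as all genes share the same libraries and depth. Among those at 1, the 5 with most UMI were RPS12, UBB, RBM4, RPS7 and RPS10. RPS12, a ribosomal protein gene, ran from 548 CPM in Day3-E1 to 7543 in Day3-E8, with a mean of 453 CPM on Day 2. Others at 1 were lower on Day 2, such as IMP3 with 27.3 CPM and RPL36AL with 29.6.

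Markers of other cells that could be in the samples were looked up as whole lists. The 17 cumulus and granulosa markers outside the set summed to 729 ± 68.1 CPM on Day 2 and 551 ± 186 on Day 3, with HAS2 the most abundant at a mean of 217. STAR had 1081 UMI on Day 2 and 479 on Day 3, and SERPINE2 had 584 and 468. PTX3 had 7 and 2, CYP11A1 had 2 and 1, and CYP19A1, FSHR, LHCGR and AMHR2 are not among the genes of the table. The list thus held abundant, scarce and absent genes. By edgeR's test 0 of 4 tested were called in either direction. TNFAIP6 is a member as well as a cumulus marker, and in Day3-E4, where it was highest, the other cumulus markers summed to 424 CPM. Fibroblast markers summed to 249 ± 28.6 and 272 ± 44.7 CPM, with FBN1 the most abundant, and 2 of 3 tested rose (COL1A1 and PDGFRA) and 1 fell (FBN1 with -1.05), while DCN and COL3A1 had 0 UMI on Day 2 and 2 on Day 3 each. Blood markers summed to 16.57 ± 6.76 and 21.4 ± 12.4 CPM, with CD3E the most abundant and 0 tested. Sperm markers summed to 152 ± 15.49 and 98.5 ± 34.5 CPM, with ODF2 the most abundant, and LDHC, 1 of 2 tested, fell by 1.32 on the log2 scale. These are SDs over 6 Day 2 and 8 Day 3 embryos, and the part of such cells in the levels of the 83 genes was not tested.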

How the data were processed

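Blastomeres of 6 Day 2 and 8 Day 3 embryos were sequenced by SCRB-Seq. The authors mapped reads to Bos tau7 and the ERCC sequences with STAR 2.5.2b, tallied UMI by the Drop-seq pipeline and deposited the raw UMI counts of 170 cells, which were used here. Whether counting used the strand is not given in the sources used here, so overlapping and antisense genes cannot be told apart. Their normalised table was not used. The members and lists were chosen with earlier results of these data known, roles were assigned by hand once the members were known, and members named outside the rule below were chosen after their values were seen. The rule named the 15 members with most Day 3 UMI, the 5 with the largest and the 5 with the smallest share in a single embryo, the 5 with the highest and the 5 with the lowest index between siblings, every member of a fixed list, the genes at the edges of the rule and, per list and direction, up to 3 called genes with the largest change.

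Cells under 2000 UMI were left out (9 of 170), as in the paper, and ERCC rows were left out of totals. UMI were summed per embryo for levels (CPM) and tests. The edgeR (4.0.16, R 4.3.3) quasi-likelihood test used TMM scaling, filterByExpr and Benjamini-Hochberg adjustment, with DESeq2 1.42.0 as an alternative. The index of dispersion is Pearson's chi-square, against the share of a gene in its embryo times the UMI of the cell, over its degrees of freedom, and the squared CV beyond counting error is the summed squared deviation less its Poisson part, over the summed squared expectation. Steps in Python 3.11.15 used numpy 2.4.6, pandas 2.3.3 and scipy 1.17.1. In data simulated for the plate comparison, 58.2% of tested genes changed by a log2 of 2 and 89.5% of those changed by a log2 of 3 were recovered, and for the days 94.0% and 99.0%. Embryos are separate animals, but the labels name no parents. All 83 members matched protein-coding genes in RefSeq, 81 by symbol and 2 by an older symbol (FAM214B and MESDC1). Alternatives were the limits of the rule, the minimum per cell, thinning, plates, barcode sets and leaving out each embryo, and leaving out the deepest Day 3 cell was added after seeing the data. Counting intervals cover counting error only. A planned search for promoter motifs was not run. The values of 1 member, which is counted in all totals, and of 1 gene of the lists are not reported here.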

Additional observations from a re-analysis of the deposited data

Results flagged for a closer look

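Dixon's criterion was applied to the highest and the lowest embryo of 57 groups, some of which were groups of Day 2 embryos. The criterion was met in 11 groups, in all of which the highest Day 3 embryo stood apart from the other 7. Chance alone meets it in about 1 group of 20, but 5 of the 11 genes (KRT24, ANKRD1, BTBD1, ID1 and MAGEH1) were named for the large share of their UMI in 1 embryo, so that it is no test for them. It was met 6 times in the other 52 groups. Of the 11 genes 9, all but MESDC1 and LOC789175, would fall under the 25 UMI of the rule without the embryo that stood apart, so the count is largely set by the rule and is not read against chance. Day3-E8 stood apart for MESDC1 (69.5 CPM, the next embryo at 30.5), BTBD1 (48.9, next 16.16), MED9 (51.5, next 20.9) and LOC515358 (28.3, next 13.09). Day3-E4 stood apart for LOC789175 (77.7 CPM, next 36.04), MAGEH1 (44.8, next 10.297), GCHFR (47.8, next 20.6) and TNFAIP6 (44.8, next 13.56). Day3-E6 stood apart for KRT24 (54.8 CPM, next 15.45) and ID1 (76.7, next 15.45), and blastomere 13 held all 25 UMI of KRT24 and 30 of 35 UMI of ID1 there. Day3-E5 stood apart for ANKRD1 (49.4 CPM, next 12.9), with 19 UMI in 7 cells.

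The 5 Day 3 cells left out for having under 2000 UMI held 6 UMI of members among 2880 UMI on genes, and the 4 such Day 2 cells held 1 among 2396.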

How the results depend on the processing

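The size of the set followed its limits. With 0 UMI allowed on Day 2 it was 11 genes, with 10 allowed 172, with 15 or more UMI on Day 3 160, with 50 or more 26, with the first barcode set alone 1, and without plate 1 38. Leaving out 1 embryo gave 53 to 78 genes for Day 3 embryos, the lowest without Day3-E8, and from 96 to 1.41 times the 83 genes for Day 2 embryos. A minimum of 5000 UMI per cell gave 83 genes, 82 of them shared, and of 10000 gave 81, 80 of them shared. Without the deepest Day 3 cell, an alternative chosen after seeing the data, the summed level on Day 3 was 1287 CPM. The number of members per cell depended on depth, with 5.42 on Day 3 at 5000 UMI, 16.99 at 20000 and 18.7 without thinning, and on Day 2 0.201 at 5000, 0.874 at 20000 and 4.27 without thinning. The median index between siblings was 1.096 when cells were thinned to 10000 UMI.

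The number of genes called between the days was 351 with the first barcode set alone (327 higher and 24 lower on Day 3), 2048 with plates 2 and 3 alone and the plate as a covariate (1076 higher and 972 lower, against 1117 and 595 over all embryos), 2561 by DESeq2, 2190 without a filter and 1327 to 2163 when 1 embryo was left out. Of 45 genes named from the lists, 20 kept their call in all alternatives run, 25 lost it with the first barcode set alone, where 7 of the 20 could not be tested, and 0 changed direction. Among the 854 values of these genes in the alternatives, 91 were without the call. Of these 91, 9 came from settings other than the first barcode set and leaving out 1 embryo. For PARP14 the log2 fold change between plates, -1.11, was -3.45 without Day3-E4 and -0.34 without Day3-E8. The log2 fold change of TICAM2 between plates, 0.17, ran from -0.38 to 0.87 when 1 Day 3 embryo was left out and was below 0 for 4 of the 8. Members near 25 UMI limit what can be said of siblings, since a cell then holds mostly 0 or 1 UMI. No paired analysis was possible because the embryo numbers only name embryos and do not link Day 2 to Day 3.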
